A study of Mus musculus with 4 samples.

Results

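Mitosis and G2/M genes are described here in activated mouse T cells. They are 33 genes chosen by name from the 49671 genes in the deposited tables, for their roles as kinases, cyclins, checkpoint, kinetochore, spindle and cytokinesis proteins. All 33 were found in the table of expression levels and in the table of allele counts. RNA came from splenic CD3+ T cells of 4 female F1 mus x cast mice, 1 library per mouse, which the labels call biological replicates. The mothers were C57BL/6 mice with a heterozygous Xist deletion and the fathers Mus musculus castaneus, a cross made to skew X inactivation. Column-enriched T cells were kept for 48 hours on plate-bound anti-CD3 at 1 µg/ml with soluble anti-CD28 at 10 µg/ml, which stand in for antigen and costimulation. IMD-0354, an inhibitor of the kinase that releases NF-κB, was present at 2.5 µM in all 4 cultures. Unstimulated cells and cells without the inhibitor were not analysed here, so neither the stimulus nor the inhibitor was tested. Enriched cells are not a sorted population, and each library is a bulk sample of one culture.

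Cells that divide make the proteins of mitosis in a burst late in the cycle. The cyclins and CDK1 start mitosis, the Aurora and Polo-like kinases build the spindle, and kinetochores join chromosomes to it. The spindle checkpoint holds back CDC20 and the anaphase-promoting complex until every chromosome is attached, and the central spindle and a contractile ring then divide the cell. In resting cells most of these genes are kept silent by the DREAM complex, made of pocket proteins, E2F proteins and the MuvB core. MuvB binds a short promoter element, the cell cycle genes homology region (CHR), and in cycling cells passes to B-MYB and FOXM1, which activate the same genes. T cells leave rest after their antigen receptor and CD28 are engaged, and Mki67 and Top2a are widely used as marks of dividing T cells.

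The promoters show what most of these genes share in sequence. RefSeq promoter windows of 300 bases (250 before and 50 after the start site, GRCm38.p6, the assembly behind mm10) were matched for 27 of the 33 genes, and not for Ccna2, Aurkb, Incenp, Spc24, Tpx2 and Kif20a. The CHR was searched as TTTGAA or TTCGAA and the CCAAT box as CCAAT, each on both strands, and 1 pair of CHR and CCAAT matches overlapped. Counts are of genes with a match in any of their windows, and 2 members had several windows. A CHR was found for 21 of 27 members, where 21.7% of the 27025 genes with a window had one. A CCAAT box was found for 20 of 27 against 41.1% of all these genes, a pair of CCAAT boxes for 14 against 13.3%, and both elements for 18 against 8.61%. The CHR lay within 50 bases of the start site in 19 of the 27 genes, and this count was not made for all genes. Such short words occur often by chance, and a match describes letters and not a bound site.

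Stretches of 120 bases up to the start site are shown for 5 genes, 5′ to 3′ on the gene's strand, with CHR and CCAAT matches in capitals (TTCAAA and ATTGG are the same words on the other strand). Cdk1 (chr10:69352913-69353032, minus strand), Cdc20 (chr4:118437344-118437463, minus strand), Kif11 (chr19:37376262-37376381, plus strand) and Top2a (chr11:99024190-99024309, minus strand) show both elements close to the start. Mad2l1 (chr6:66535101-66535220, plus strand) is shown because its window held neither element, as was also so for Birc5, Nuf2 and Nusap1. The RefSeq and GENCODE start sites lay within 50 bases of each other for 22 of the 27 genes, but the GENCODE start of Mad2l1 is 169 bases downstream of the RefSeq one, and a window at that start was not searched.
Cdk1: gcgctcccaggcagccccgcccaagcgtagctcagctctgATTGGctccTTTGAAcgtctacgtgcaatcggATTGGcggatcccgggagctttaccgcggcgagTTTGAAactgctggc
Cdc20: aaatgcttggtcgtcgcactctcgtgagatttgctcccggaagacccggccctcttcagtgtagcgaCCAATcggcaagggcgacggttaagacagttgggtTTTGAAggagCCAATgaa
Kif11: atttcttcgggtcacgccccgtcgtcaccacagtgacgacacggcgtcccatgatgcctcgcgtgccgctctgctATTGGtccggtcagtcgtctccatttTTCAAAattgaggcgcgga
Top2a: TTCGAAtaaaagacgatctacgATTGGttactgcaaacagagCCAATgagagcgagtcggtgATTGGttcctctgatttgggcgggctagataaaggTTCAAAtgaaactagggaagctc
Mad2l1: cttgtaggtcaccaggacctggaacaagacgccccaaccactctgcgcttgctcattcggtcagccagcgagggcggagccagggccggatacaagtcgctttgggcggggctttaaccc

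**Figure D1:**
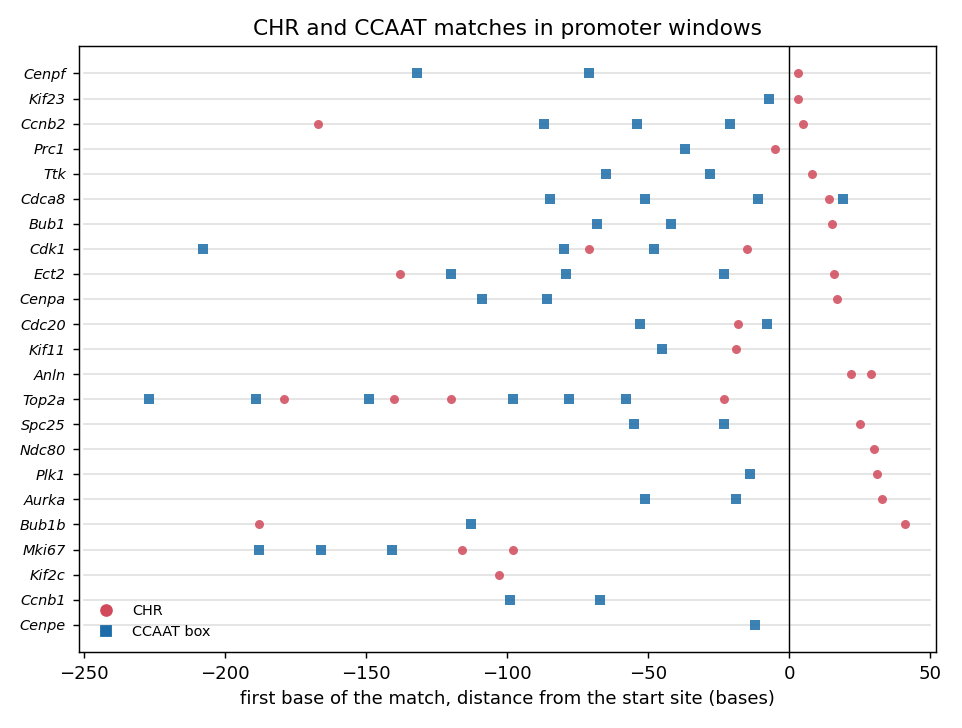
Positions of CHR (red circles) and CCAAT matches (blue squares) in the promoter windows of the members that held either element; the x axis gives the distance of the first base of a match from the start site in bases, 1 row and 1 window per gene, ordered by the CHR nearest to the start. A CHR match lies within 50 bases of the start site in 19 genes, a count not made for all genes. Most CCAAT matches lie upstream, as does most of the window (250 bases before the start site and 50 after it).

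The 33 genes ran from barely detected to moderate levels in these cultures. Levels are in RPKM, the reads of both alleles scaled by gene length and by library size, which can be compared between genes. A mean of at least 1 RPKM over the 4 replicates was found for 8 of the 33 genes, a share close to the 23.1% of all genes and below the 43.1% of 21734 protein-coding genes. Means ran from 0.0372 RPKM for Kif2c to 7.32 RPKM for Incenp with a median of 0.350 RPKM, 19 genes were under 0.5 RPKM and 7 under 0.1 RPKM. The members' median was somewhat above that of all protein-coding genes, 0.271 RPKM. Summed over the 33 genes the level was 26.1, 30.4, 27.7 and 29.8 RPKM in replicates 1 to 4, so no culture stood apart in the total. In bulk RNA, fewer dividing cells and less RNA per dividing cell cannot be told apart. On the TPM scale, where each library has the same sum, 17 of the 33 genes reached 1 and the median was 1.01. The share of all genes at this TPM level was not computed. The count over a fixed level thus depends on the scale, while the order of genes within a library does not.

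**Figure D2:**
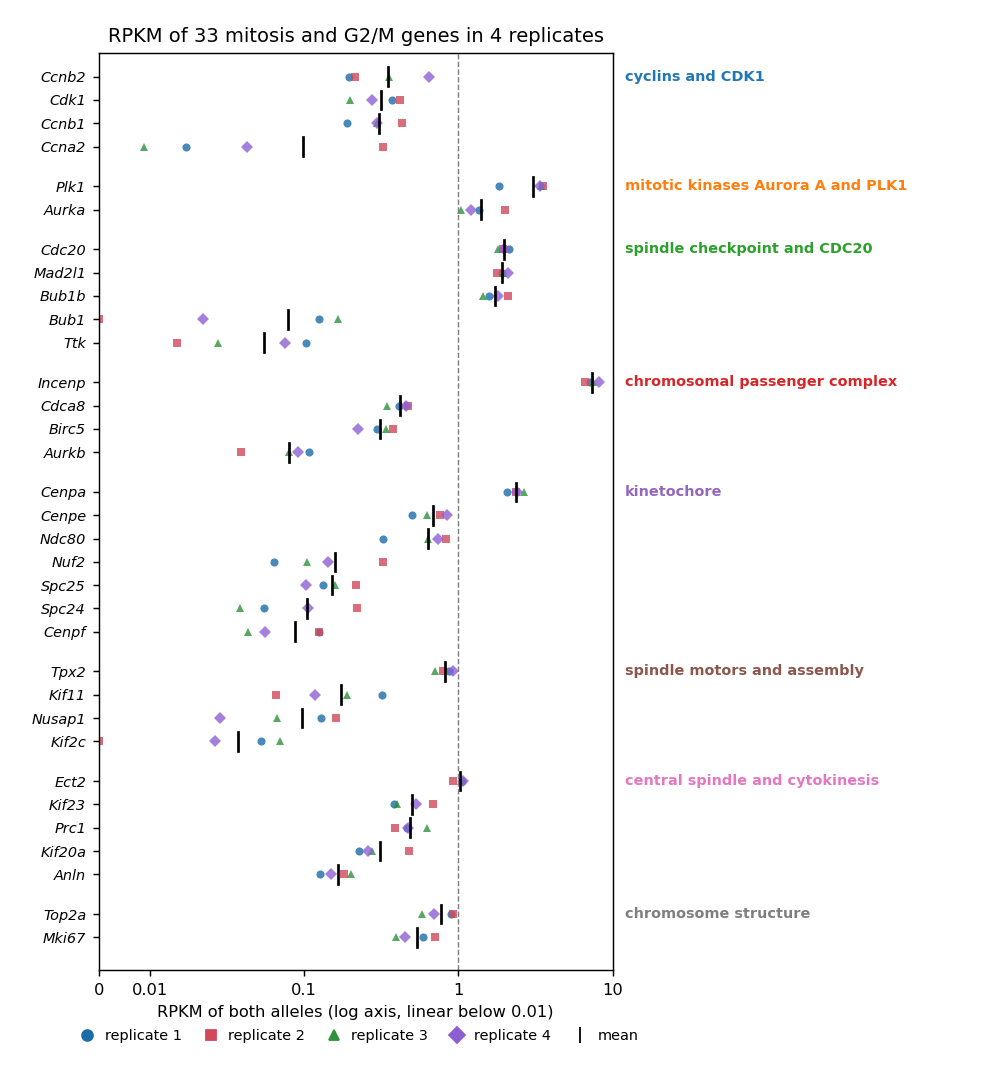
RPKM of each of the 33 genes (y axis, grouped by role) on a log axis that is linear below 0.01, with 1 symbol per replicate and a bar at the mean of 4; the dashed line marks 1 RPKM. The 8 genes right of the line by their mean are Incenp, Plk1, Cenpa, Cdc20, Mad2l1, Bub1b, Aurka and Ect2, and symbols spread more widely toward the left.

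Cyclins and CDK1, the engine of mitotic entry, were all under 1 RPKM. Ccnb2, a B-type cyclin and the highest of the 4, had 0.194, 0.212, 0.352 and 0.642 RPKM in replicates 1 to 4 (mean 0.350 ± 0.207, SD, n = 4). Ccna2, the A-type cyclin of S phase and mitotic entry and the lowest, had 0.0171, 0.324, 0.0088 and 0.0425 RPKM, so that replicate 2 held most of the signal. Cdk1, the kinase itself, averaged 0.316 ± 0.0990 RPKM and Ccnb1, its main mitotic partner, 0.304 ± 0.0999 RPKM. The value of Ccnb1 is uncertain, since 4 pseudogenes are near copies of it: Ccnb1-ps matches it at 99.2% over 1287 aligned bases, and reads could be shared between them. Ccna2 shares 12.5% of its exon bases with Exosc9 on the other strand, at 3.20 RPKM, and the sources used here do not give the strand setting of the counts.

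Plk1 and Aurka were higher than the cyclins and Cdk1, unlike the kinase genes Bub1, Ttk and Aurkb described with their complexes. Plk1, the Polo-like kinase of spindle assembly, had 1.84, 3.54, 3.43 and 3.40 RPKM (mean 3.05 ± 0.807), with replicate 1 below the other three. Aurka, the Aurora kinase of spindle poles, had 1.36, 2.00, 1.04 and 1.22 RPKM (mean 1.40 ± 0.422), with replicate 2 the highest. Their coefficients of variation, 26.4% and 30.03%, were above the median of 11.4% over all genes of at least 1 RPKM.

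Checkpoint genes fell into a higher and a lower set. Cdc20, the activator of the anaphase-promoting complex that the checkpoint restrains, had 2.12, 1.94, 1.82 and 1.97 RPKM (mean 1.96 ± 0.126). Mad2l1, which binds CDC20, was close to it at 1.93 ± 0.126 RPKM, and the Bub1b mean, for the BubR1 protein of the same inhibitory complex, was 1.74 ± 0.283 RPKM. These 3 neighbours in level did not differ beyond their spread. The kinases that start the checkpoint signal lay far below: Bub1 had 0.124, 0, 0.165 and 0.0221 RPKM, and Ttk 0.103, 0.0149, 0.0274 and 0.0745 RPKM. Both were lowest in replicate 2, and their replicates did not overlap with those of the higher 3.

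The chromosomal passenger complex, which corrects wrong attachments at centromeres, was uneven among its subunits. Incenp, its scaffold (ENSMUSG00000024660, chr19:9872296-9899551, minus strand, mm10), was the highest of the 33 genes at 7.12, 6.60, 7.44 and 8.12 RPKM (mean 7.32 ± 0.640). Aurkb, its kinase, was the lowest subunit at 0.107, 0.0391, 0.0793 and 0.0916 RPKM. Cdca8, which encodes borealin, averaged 0.421 ± 0.0571 RPKM and Birc5, which encodes survivin, 0.310 ± 0.0654 RPKM. The ranges of the 4 replicates of Incenp lay above those of the 3 other subunits.

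Among 7 kinetochore genes only Cenpa reached 1 RPKM. Cenpa, the histone H3 variant of centromeres, had 2.06, 2.36, 2.66 and 2.40 RPKM (mean 2.37 ± 0.247). Cenpf, a large outer kinetochore protein, was the lowest at 0.125, 0.125, 0.0431 and 0.0556 RPKM, higher in replicates 1 and 2 than in 3 and 4. Between them lay the motor Cenpe at 0.680 ± 0.149 RPKM and the 4 subunits of the NDC80 complex that grips microtubules. Ndc80 averaged 0.633 ± 0.221 RPKM, above Nuf2 at 0.159 ± 0.115, Spc25 at 0.152 ± 0.0486 and Spc24 at 0.104 ± 0.0821 RPKM. The last 3 did not differ beyond their spread.

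Spindle genes were under 1 RPKM throughout. Tpx2, which activates Aurora A on the spindle, was the highest at 0.867, 0.793, 0.703 and 0.917 RPKM (mean 0.820 ± 0.0933). Kif2c, a kinesin that takes microtubules apart, was the lowest of all 33 at 0.0521, 0, 0.0700 and 0.0265 RPKM. Kif11, the motor that pushes spindle poles apart, averaged 0.173 ± 0.110 RPKM and Nusap1, a microtubule binding protein, 0.0961 ± 0.0596 RPKM.

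Of the 5 cytokinesis genes only Ect2, which activates RhoA for the contractile ring, passed 1 RPKM, with 1.06, 0.919, 1.04 and 1.08 RPKM (mean 1.02 ± 0.0714). Anln, an actin binding protein of the ring, was the lowest at 0.127, 0.180, 0.202 and 0.149 RPKM. Kif23 and Prc1, which bundle the central spindle, averaged 0.5002 ± 0.140 and 0.487 ± 0.102 RPKM, and Kif20a, a kinesin of the same structure, 0.310 ± 0.115 RPKM. Kif20a shares 29.3% of its exon bases with the antisense gene Cdc23, at 4.48 RPKM, and Prc1 shares 11.1% with Rccd1, at 2.71 RPKM, so part of their reads may belong to the partner.

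The common proliferation marks were under 1 RPKM as well. Top2a, the topoisomerase that untangles sister chromatids, had 0.900, 0.923, 0.580 and 0.690 RPKM (mean 0.773 ± 0.166). Mki67, the surfactant of mitotic chromosomes, had 0.591, 0.709, 0.395 and 0.448 RPKM (mean 0.535 ± 0.142). Replicates 1 and 2 were above replicates 3 and 4 for both genes, and also for Cdk1, Aurka, Cenpf and Nusap1 but for no other member. The labels do not pair the replicates this way, and the split was taken from these values. Some sums of cell type markers divided in the same way and others did not. Myeloid markers (9 genes) did so, at 111, 183, 73.6 and 54.9 RPKM, as did B cell markers (8 genes), at 12.4, 8.36, 5.72 and 6.01 RPKM. Erythroid markers (19.4, 23.9, 14.5 and 18.1 RPKM) and plasma cell markers (40.2, 41.9, 38.5 and 36.5 RPKM) did too. NK cell markers (4.07, 4.38, 6.08 and 3.98 RPKM) and T cell markers (515, 514, 497 and 546 RPKM) did not. The sum over the 33 members (26.1, 30.4, 27.7 and 29.8 RPKM), to which Incenp alone gave 7.32 RPKM in the mean, did not divide this way. Nor did the sum over the 22 DNA replication genes (117, 119, 115 and 124 RPKM). How often all genes show this order was not counted. The part of other cells in these levels was not tested.

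The libraries carried T cell RNA, and markers of other cells were also read. All 11 T cell markers were at 8.79 RPKM or more and summed to 497 to 546 RPKM per replicate. Of the myeloid markers 6 of 9 reached 1 RPKM, led by Lyz2 at 41.3 ± 24.6 RPKM, as did 3 of 8 B cell, 5 of 9 erythroid, 3 of 6 plasma cell and 1 of 5 NK cell markers. The plasma cell genes were Xbp1, Prdm1 and Mzb1, the NK cell gene was Eomes, and Tfrc was among the erythroid genes. Which cells these transcripts came from was not tested. None of the B cell or myeloid markers was at 0 in the mean. Erythroid markers summed to 14.5 to 23.9 RPKM.

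Replicate 2 was the highest for 18 of the 33 genes, replicate 1 for 4, replicate 3 for 5 and replicate 4 for 6. Across all genes of at least 1 RPKM, replicates 1 to 4 were highest in 19.7%, 42.1%, 17.3% and 20.8%, and across genes of 0.05 to 1 RPKM in 23.6%, 35.2%, 22.4% and 18.7%, so replicate 2 was the most frequent highest library for all genes too on this scale. The members were lowest in replicates 1 to 4 in 10, 9, 11 and 3 cases. After scaling by median-of-ratios factors (0.968, 1.05, 0.979 and 1.01), 14 members were highest in replicate 2 against 26.5% of all genes of at least 1 RPKM, and 7 in replicate 1 against 29.2%, so the lean of all genes to replicate 2 was not seen on that scale. With TPM, 18 members were highest in replicate 2 against 55.7% of all genes of at least 1 RPKM. The shares of genes under 1 RPKM, as 25 of the members are, were not computed on either scale. The median log2 deviation of the members in replicate 2 from their own means was 0.23 on the log2(RPKM + 0.1) scale, 0.25 over the 25 members under 1 RPKM and -0.01 over the 8 above. The median coefficient of variation was 30.03% over the 33 genes and 9.59% over those 8, beside 11.4% for all genes of at least 1 RPKM and 56.1% for all genes of 0.05 to 1 RPKM.

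The wider machinery of mitosis gives the scale for these levels. Of 119 other genes in 7 lists, 73 reached 1 RPKM with a median of 2.17 RPKM. The list of the anaphase-promoting complex, which also holds Fzr1, Fbxo5, Ube2c and Ube2s, had 17 of 18 genes at this level, led by Anapc2 at 25.5 ± 1.96 RPKM. Cohesin and separase genes did so in 10 of 14 cases, led by the cohesin loader Nipbl at 68.1 ± 7.998 RPKM, and condensin genes in 6 of 8, led by the ATPase Smc4 at 73.9 ± 10.2 RPKM. Many of these proteins also act outside mitosis. Lists closer to the members were lower: 16 of 32 other centromere and kinetochore genes reached 1 RPKM, led by Zw10 at 13.6 ± 1.19 RPKM, and 7 of 20 other spindle and cytokinesis genes, led by Ckap5 at 8.70 ± 0.187 RPKM. Regulators of mitotic entry did so in 8 of 13 cases, led by Pkmyt1, a kinase that restrains CDK1, at 10.3 ± 1.11 RPKM. DNA replication genes, which act in S phase just before, had 17 of 22 at 1 RPKM or more with a median of 3.64 RPKM, and Pcna, the sliding clamp, had 23.9 ± 1.08 RPKM.

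Within the regulators of mitotic genes, the subunits of DREAM were above the activators that replace it. E2f4, its E2F partner, had the highest level at 30.2 ± 0.914 RPKM, and the pocket protein genes Rbl1 and Rbl2 had 12.5 ± 1.32 and 12.2 ± 0.658 RPKM. The MuvB genes Lin37, Lin54, Lin52 and Lin9 had 12.8 ± 1.06, 9.89 ± 1.59, 8.22 ± 1.47 and 1.94 ± 0.144 RPKM. The activators Mybl2, which encodes B-MYB, and Foxm1 had 0.620 ± 0.121 and 0.584 ± 0.0588 RPKM, below every replicate of each DREAM gene named. RNA levels carry no information on which complex was bound. Among the members, a CHR was present in 6 of 7 genes of at least 1 RPKM with a promoter window and in 15 of 20 under it.

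**Figure D3:**
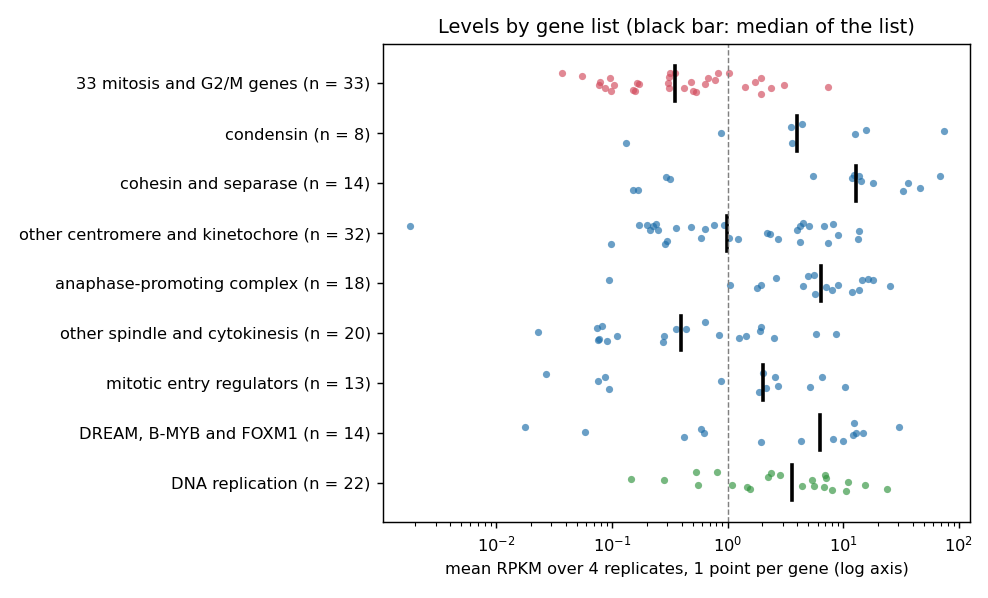
Mean RPKM over 4 replicates on a log axis, 1 point per gene, for the 33 members (red), 7 lists of other mitotic genes (blue) and DNA replication genes (green), with a black bar at each list's median and a dashed line at 1 RPKM. The members' median of 0.350 RPKM lies below the medians of all other lists drawn, including the other spindle and cytokinesis genes at 0.398 RPKM.

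Each mouse carried a C57BL/6 and a Castaneus allele of every autosomal gene, so the share of reads from the Castaneus allele compares the parental alleles within one cell culture. All 33 members are autosomal. Allelic reads totalled 30539711 to 34992012 per library, of which the members had 6233 to 6965, or 0.0199% to 0.0206%. At least 20 allelic reads per replicate in the mean were found for 30 members. Just under this minimum were Ccnb2 with 19.5, Ccna2 with 13.5 and Kif2c with 9.50 mean reads, and just above it Ttk with 23.5 and Bub1 with 25.0. The median member had 92, 126, 88 and 82 allelic reads in replicates 1 to 4. Reads came in clumps: of autosomal genes with 20 to 39 reads, 36.4%, 84.2%, 45.2% and 13.5% were read from 1 allele only. Taking a clump as 1 molecule and the alleles as equal gives about 11.0, 22.6, 12.6 and 6.79 reads per molecule, so that the median member rests on 8.36, 5.57, 6.996 and 12.1 molecules.

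Shares of single members varied in step with this depth. Over the 30 members the SD of the share between replicates was at least 20 percentage points for 11 and under 10 points for 8. The 14 members with fewer than 100 mean reads and some in every replicate had a median SD of 21.9 points, close to 22.7 points for all autosomal genes of that depth, and the 11 with 100 to under 500 reads had 11.5 points beside 10.2 points. A share of exactly 0 or 100% occurred for 2, 7, 3 and 0 members in replicates 1 to 4. Clumping was itself measured from genes read from 1 allele only, so this order of the libraries is no separate finding. Such shares were not counted over all genes of like depth. Cdc20 is among these members, with Castaneus shares of 61.1%, 0%, 48.6% and 43.4%. The 0 of 138 reads in replicate 2 allow a share of up to 2.17%, taking 3 reads as the limit and counting error only. That limit counts each read as independent. With about 22.6 reads per molecule in replicate 2 it is too low. The replicates of Cdc20 in RPKM (1.82 to 2.12) showed no such gap.

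**Figure D4:**
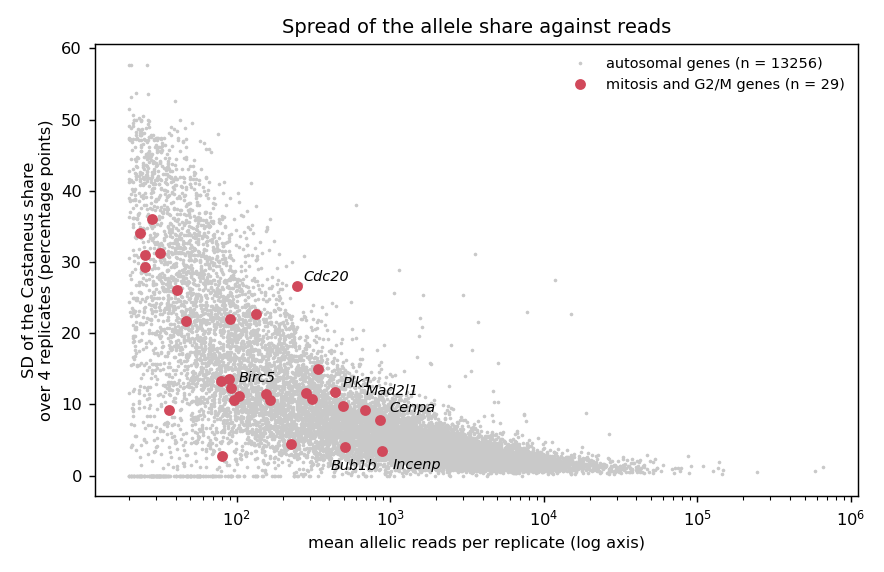
SD of the Castaneus share over 4 replicates (y axis, percentage points) against mean allelic reads per replicate (log x axis), with 29 members that had reads in every replicate in red and 13256 autosomal genes in gray. Members lie within the cloud of genes of like depth, and Cdc20 stands high for its 246 mean reads with an SD of 26.6 points.

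Allelic imbalance was tested for the 8 members with at least 1 RPKM, in a fit over 10268 autosomal genes (edgeR's quasi-likelihood test with the replicate as a block, Benjamini-Hochberg adjustment over all genes tested). Of the 8, 1 was called higher from Castaneus and 2 higher from C57BL/6, beside 12.4% and 15.6% of all genes tested, or 28.1% in either direction. A count of 3 in 8 is too small to set the members apart from that background. Imbalance between alleles also includes any bias in assigning reads to the reference genome, which was not tested.

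Bub1b (ENSMUSG00000040084, chr2:118598211-118641591, plus strand, mm10) was higher from the C57BL/6 allele in 4 of 4 replicates. Its Castaneus share was 33.2%, 27.9%, 23.6% and 26.2% (mean 27.7% ± 4.05, 453 to 569 reads per replicate). All 4 shares were well under an equal share of 50%, and the log2 ratio of Castaneus to C57BL/6 was -1.37 (SE 0.22, adjusted p = 0.000887 by edgeR). The call was made in 13 of 13 alternatives, with adjusted p from 6.752e-10 to 0.0105.

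Mad2l1 (ENSMUSG00000029910, chr6:66535390-66547220, plus strand, mm10) was higher from C57BL/6 by less and with a wider spread. Its shares were 36.2%, 24.4%, 34.6% and 46.9% (mean 35.6% ± 9.22, 500 to 782 reads), all under 50% but near it in replicate 4. The log2 ratio was -0.85 (SE 0.24, adjusted p = 0.0198 by edgeR), and leaving out replicate 1 (adjusted p = 0.0823) or replicate 3 (adjusted p = 0.0691) ended the call. Without replicate 2, where its share was lowest, the log2 ratio was -0.61, and with counts divided by reads per molecule it was -0.62. The call was kept in both. Its adjusted p ran from 0.00266 to 0.0823 over 13 alternatives. A processed pseudogene, Gm42430, matches 454 bases of Mad2l1 at 95.4% and was listed at 0 RPKM.

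Plk1 (ENSMUSG00000030867, chr7:122159439-122169873, plus strand, mm10) was higher from Castaneus. Its shares were 70.2%, 88.0%, 62.7% and 63.7% (mean 71.2% ± 11.7, 292 to 544 reads), above 50% in 4 of 4 replicates and highest in replicate 2. The log2 ratio was 1.40 (SE 0.36, adjusted p = 0.0130 by edgeR). Without replicate 1 the call was lost (adjusted p = 0.0625), without replicate 2 the ratio was 0.95 and the call was kept, and adjusted p ran from 0.0001145 to 0.0625 over 13 alternatives. Of the exon bases of Plk1, 7.09% overlap the antisense gene model Gm44985, which was listed at 0 RPKM.

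The other 5 tested members were not called by edgeR. Ect2 had the largest ratio, with shares of 100%, 78.1%, 85.7% and 84.2% on 19 to 49 reads per replicate (log2 ratio 3.06, SE 1.16, adjusted p = 0.0759), and without replicate 1 the log2 ratio was 2.30. It was called in 4 of 12 alternatives, including DESeq2 (adjusted p = 0.00520) and the fit with no replicate block (adjusted p = 0.0450). Aurka had a log2 ratio of -0.89 (SE 0.46), Cdc20 -0.81 (SE 0.90, and 0.09 without replicate 2) and Cenpa -0.45 (SE 0.20), with adjusted p of 0.189, 0.558 and 0.119 by edgeR. Incenp, the deepest member with 880 mean allelic reads, had shares of 50.4%, 55.2%, 52.1% and 46.8% and a log2 ratio of 0.09 (SE 0.16). Its 4 replicates lay on both sides of 50%.

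**Figure D5:**
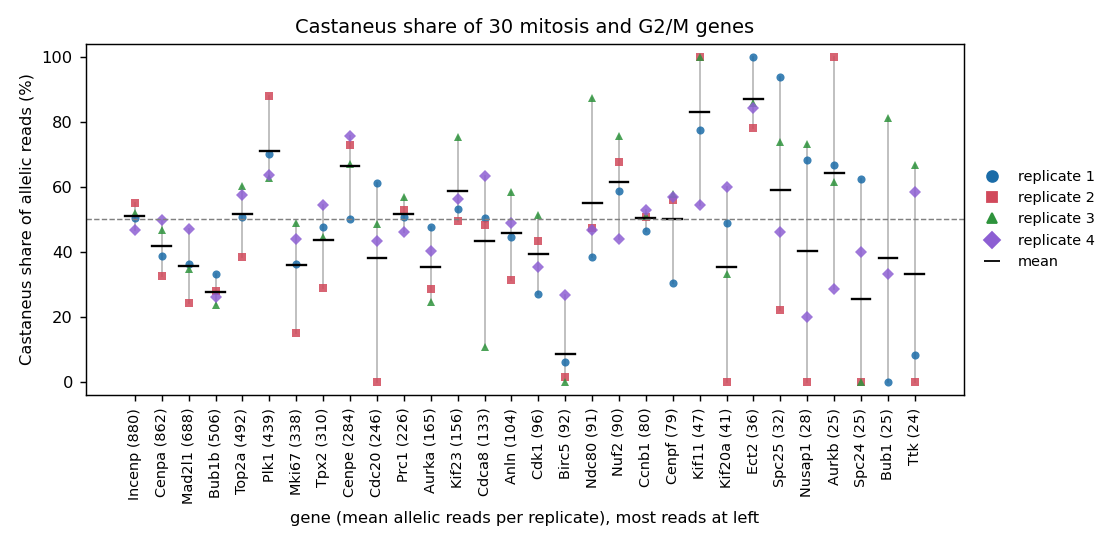
Castaneus share of allelic reads (y axis, percent) of the 30 members with at least 20 mean allelic reads, ordered from most reads at the left, with 1 symbol per replicate, a gray line over their range and a black bar at the mean; the dashed line marks 50%. Bub1b and Mad2l1 lie under the line and Plk1 above it in 4 of 4 replicates, and ranges widen toward the right.

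Without the RPKM minimum 30 members were tested among 13627 autosomal genes, and the same 3 genes and Birc5 were called: 1 was higher from Castaneus, beside 10.4% of all genes, and 3 from C57BL/6, beside 12.5%, or 22.9% in either direction. Birc5 had Castaneus shares of 6.00%, 1.64%, 0% and 26.7% on 73 to 122 reads, all under 50% (log2 ratio -4.42, SE 1.18, adjusted p = 0.0227 by edgeR). Cenpe leaned to Castaneus with 50%, 73.0%, 67.0% and 75.7% but did not pass (log2 ratio 1.06, SE 0.35, adjusted p = 0.0533 by edgeR). Kif11 had shares of 77.5%, 100%, 100% and 54.5% and did not pass (adjusted p = 0.218 by edgeR). Mean shares were within 40% to 60% for 13 of the 30 members, under 40% for 11 and over 60% for 6. These counts were not made for all autosomal genes. Members of 20 to under 100 mean reads had a median share SD of 21.9 points, so a mean outside 40% to 60% is no call of imbalance. Among those 13 the share varied least for Ccnb1 (50.3% ± 2.71), which has near copies, Incenp (51.1% ± 3.48) and Prc1 (51.7% ± 4.48).

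In the lists of other mitotic genes 67 autosomal genes were tested, 7 were called higher from Castaneus and 8 higher from C57BL/6, or 22.4% in either direction beside 28.1% of all genes tested. Among the called genes the largest ratios to Castaneus were those of Hjurp, the chaperone of CENP-A (shares 85.7% to 94.3%, log2 ratio 3.22), Tfdp1, the partner of E2F proteins (0.86), and Plk4, the kinase of centriole duplication (0.79). Among the called genes the largest to C57BL/6 were those of Pttg1, which encodes securin, the inhibitor of separase (shares 11.2% to 19.8%, log2 ratio -2.60), the kinetochore gene Pmf1 (-1.45) and the CDK-activating phosphatase Cdc25a (-0.76).

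X-linked genes of the other lists were read almost only from C57BL/6, the X that carries the Xist deletion in daughters that inherit it. Kif4, a chromokinesin of the central spindle, had 186 allelic reads in all, none of them Castaneus. Its share is at most 1.61% with 3 reads as the limit, if reads were independent. Cenpi, of the inner kinetochore, had 0 of 550 (up to 0.545%) and Haus7, of the augmin complex, 0 of 1258 (up to 0.238%). The cohesin gene Smc1a had 0.0860% in replicate 4 and 0 elsewhere, and Pola1, of the DNA polymerase that starts replication, 0.578% in replicate 3 and 0 elsewhere. Stag2, another cohesin gene, varied more, with 0.388%, 11.7%, 5.04% and 0% of 237 to 411 reads, highest in the library with the strongest clumping. These limits cover counting error only and count each read as independent, so with clumped reads they are too low.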

How the data were processed

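The authors deposited 2 tables for 4 samples: whole-number read counts per gene for each parental allele, not normalized, per the file headers, and RPKM for the sum of the alleles, which the authors computed. The submitters' processing notes name STAR 2.7.1a, featureCounts and mm10. Not given in the sources used here are the total behind the RPKM values, the annotation, the assignment of reads to alleles, the removal of duplicates and the use of strand. The libraries were stranded total RNA depleted of ribosomal RNA, per the labels.

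Members and lists were chosen with earlier results of these data known. RPKM was used for levels, with no test, and log2(RPKM + 0.1) for deviations. Allele counts were fitted with edgeR 4.0.16 in R 4.3.3 (glmQLFit and glmQLFTest), with the replicate as a block because each animal gives a value for either allele. Autosomal totals of each allele served as library sizes. Genes with means of at least 20 allelic reads and 1 RPKM entered the fit, the ratio was tested against 1, two-sided, and calls were made at an FDR of 5% over all genes tested. The p-values measure the spread between 4 mice. The SE given with an edgeR ratio is the size of the log2 ratio divided by the square root of the test's F statistic, and is no separate estimate. Alternatives were TMM factors, DESeq2 1.42.0, own chromosome totals, other filters, counts divided by reads per molecule, no block and leaving out each replicate. The fit was tested on simulated counts; a first simulation with a wide spread of molecule numbers recovered almost no changes, and the spread was then lowered toward that of deep genes, so this test checks the direction and the code and is no measure of power.

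Named are all members by role, with values per replicate for called members and the highest and lowest of each role, X-linked genes of the other lists, the 3 largest called ratios each way and the highest gene of each list. The other genes named (Pcna, the DREAM genes after E2f4, Mybl2, Foxm1, Lyz2 and near copies or overlapping genes) were chosen after their values were seen. Gene models came from GENCODE M21, copies of at least 95% identity over 200 bases from BLAST 2.17.0, and promoter windows from RefSeq. Other steps used Python 3.11.15, numpy 2.4.6, pandas 2.3.3 and matplotlib 3.10.9.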

Additional observations from a re-analysis of the deposited data

Results flagged for a closer look

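Of 62 sets of 4 values tested for a replicate far from the rest (33 of RPKM and 29 of the Castaneus share), 3 had one, and chance gives about 1 in 20. Ccna2 was at 0.324 RPKM in replicate 2 and at 0.0425 RPKM or less in the others. Plk1 was at 1.84 RPKM in replicate 1 and between 3.40 and 3.54 RPKM in the others. Cenpf had a Castaneus share of 30.4% in replicate 1 and of 55.9% to 57.9% in the others, on 79.2 mean allelic reads.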

How the results depend on the processing

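With TPM in place of RPKM, 17 members reached 1 and their median was 1.01. With levels of 0.5 and 2 RPKM in place of 1, chosen after seeing the data, 14 and 3 members passed. Of 21734 protein-coding genes 11505 were under 0.5 RPKM. The shares of all genes at 2 RPKM and at 1 on the TPM scale were not computed. With median-of-ratios scaling 7 members were highest in replicate 1 and 26.5% of all genes in replicate 2, and with TPM 8.45% of all genes were highest in replicate 4. With a pseudocount of 1 the median SD of log2 values of the members was 0.107 in place of 0.326. Leaving out each replicate kept 8 members at 1 RPKM and gave medians of 0.338 to 0.402 RPKM. Members called higher from Castaneus numbered 2 in place of 1 with DESeq2, with no replicate block and with counts divided by reads per molecule, where Ect2 was added, and 2 with no filter, where Cenpe was added. The pairing is by design, since both alleles of a replicate come from 1 animal, and the 3 calls were also made without the block. Without one replicate at a time, calls higher from Castaneus ran from 0 to 2 and calls higher from C57BL/6 from 1 to 2. The cause of these changes was not tested. Over 8 tested members and their alternatives 95 ratios kept their direction and side of the threshold, 4 gained a call (Ect2), 3 lost one (Mad2l1 without replicates 1 and 3, Plk1 without replicate 1) and 1 changed sign: that of Cdc20, not called, was 0.0871 without replicate 2 and ran from -1.52 to 0.0871 when each replicate was left out. Clumped reads limit the allele shares of members under 100 reads.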
